A study of Drosophila melanogaster with 4 samples.

Results

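H3K36me1, histone H3 monomethylated at lysine 36, was examined at the loci of Notch (N), the receptor of the Notch pathway, and Delta (Dl), a ligand of that receptor. The loci were taken as fixed windows on FlyBase release 5, the build of the region lists. The N window runs on X from 3020000 to 3075000, or 55.0 kb, and the Dl window on 3R from 15110000 to 15210000, or 100.0 kb. Members are all enriched regions that overlap a window. Of 5434 regions in replicate 1, 3 lay at N and 5 at Dl, 8 in all. Of 4523 regions in replicate 2, 4 lay at N and 7 at Dl, 11 in all. The authors also list regions for the set of replicates, and of these 8051 regions 5 lay at N and 4 at Dl, 9 in all.

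Notch is a transmembrane receptor that is cut when it binds a ligand on a neighbouring cell, and its intracellular part then enters the nucleus and acts with the DNA-binding protein Suppressor of Hairless on target genes. Delta is a transmembrane protein that presents this signal, and in the fly embryo the pathway limits how many cells of a group become neural precursors, a process called lateral inhibition. Methylation of H3K36 accompanies transcribed chromatin, and its monomethylated form has been described in introns of long, active developmental genes of Drosophila.

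The chromatin came from wild-type Drosophila melanogaster embryos of the Oregon-R strain, 14 to 16 hours old, crosslinked with formaldehyde. The series holds 4 samples, which are 2 replicates of chromatin pulled down through H3K36me1 and 2 samples of input chromatin, and each replicate list holds regions enriched over its own input. The set list was made by the authors from the set of replicates and is not a further replicate. All groups share 1 strain, 1 genotype and 1 stage. Whether the replicates stem from different collections of embryos is not labelled, and their differences may be technical. Whole embryos were used, and a mark in more cells cannot be told apart from more of the mark per cell. Each region carries a score given by the authors, whose scale is not stated and may differ between lists, so ranks within a list are set side by side. With 2 replicates of 1 condition there is no test across samples, and the number of reads behind a region is unknown. Both windows were set against all windows of the same length on the same arm, starting every 1000 bp.

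Gene names came from a RefSeq table of release 6 (Release 6 plus ISO1 MT), used for names and order only. In it, N stands between CG4116 and CG18508, and beyond these lie rst, a cell adhesion gene, on one side and Fcp3C, CG3939 and dnc, a cAMP phosphodiesterase gene, on the other. Dl, listed there as Delta, stands between CG44174 and the long non-coding RNA gene CR44175. Exons, introns, promoters and gene ends were not placed on release 5, so no region is assigned to a part of a gene. Other genes of the pathway were not analysed here for the same reason.

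At N, a single domain of 27.9 kb carried most of the mark, and its edges were nearly the same in every list. In replicate 1 it ran from 3028746 to 3056647 (27902 bp) with a score of 1.94. In replicate 2 it ran from 3028628 to 3056555 (27928 bp) with a score of 1.87. In the set list it ran from 3028655 to 3056637 (27983 bp) with a score of 1.89. The domain alone filled 50.7%, 50.8% and 50.9% of the N window in these lists. Between the replicates the start differed by 118 bp and the end by 92 bp. They shared 27810 bp of the domain, or 99.7% of it in replicate 1 and 99.6% in replicate 2. Over the 57 pairs of regions of at least 10 kb on X that were each other's best match, the start differed by a median of 348 bp and the end by 582 bp. Of these 57 pairs, 3, or 5.26%, had a larger edge difference no greater than that of the N domain, which is itself 1 of the 3.

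**Figure D1:**
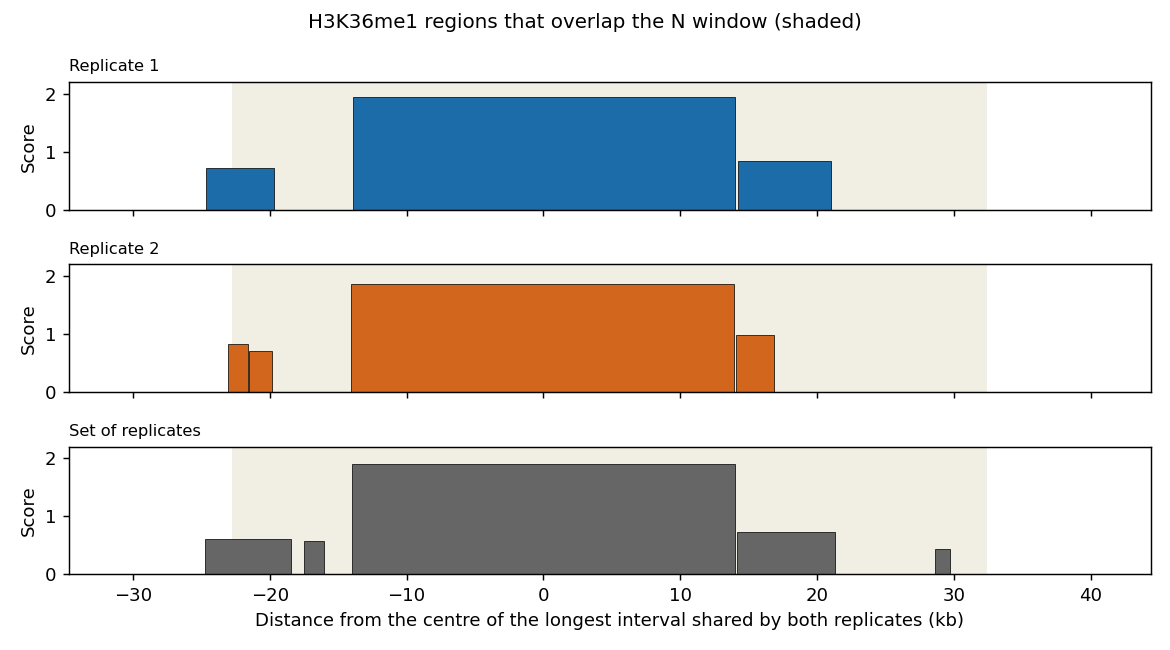
Regions that overlap the N window (shaded) in each list, as bars from region start to end against distance in kb, with the authors' score as height. In each list 1 domain of about 28 kb stands well above smaller regions on both sides, and the right end of the window holds no region in either replicate.

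The N domain scored near the top of its arm. It ranked 4 of 1017 regions of X in replicate 1, 5 of 850 in replicate 2 and 2 of 1534 in the set list. Over the whole lists it ranked 13 of 5434, 22 of 4523 and 32 of 8051. Its length ranked lower, at 14, 14 and 24 on X. Broader regions tend to have higher scores in these lists, so the score was also set against regions of like length. Among the 20 regions of X nearest in length, which ran from 18.7 kb to 36.3 kb in replicate 1, 1 scored higher and their median score was 1.27. In replicate 2, 2 of the 20 nearest, from 19.6 kb to 41.5 kb, scored higher, with a median of 1.45. In the set list 1 of the 20 scored higher, with a median of 1.04. The N domain was thus high for its length in every list.

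The smaller regions at N lay on both sides of the domain and had middling scores. To the left, replicate 1 had a region of 4930 bp from 3018013 to 3022942 with a score of 0.72, rank 430 of 1017 on X. Replicate 2 had a pair of short regions there, from 3019632 to 3021042 with a score of 0.83 and from 3021134 to 3022853 with a score of 0.71. These ranked 391 and 630 of 850. Both replicates therefore marked the same left flank, replicate 2 in pieces 91 bp apart. The set list had a region of 6247 bp there, from 3017934 to 3024180, with a score of 0.61 and rank 453 of 1534. Between this flank and the domain, replicate 1 had a gap of 5803 bp and replicate 2 a gap of 5774 bp. The set list placed a further region of 1458 bp in this gap, from 3025154 to 3026611, with a score of 0.57, and it overlapped neither replicate.

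The right side of the N domain ended in a narrow break that all lists contained, followed by a region of lower score. In replicate 1 the break was 209 bp long, from 3056648 to 3056856. In replicate 2 it was 139 bp, from 3056556 to 3056694. In the set list it was 125 bp, from 3056638 to 3056762. The replicates left 47 bp uncovered in common, from 3056648 to 3056694, and the set list covered none of these. On X, breaks of at most 300 bp between neighbouring regions numbered 97 in replicate 1 and 59 in replicate 2, and 6 of each, or 6.19% and 10.2%, overlapped such a break in the other replicate, the break at N among them. In the set list 14 of 167 such breaks, or 8.38%, overlapped one of replicate 1. The break at N was singled out after its values were seen.

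The region past the break ran from 3056857 to 3063656 in replicate 1, with a score of 0.85 and rank 241 of 1017. It was shorter in replicate 2, from 3056695 to 3059459, with a score of 0.98 and rank 186 of 850. In the set list it ran from 3056763 to 3063971, with a score of 0.73 and rank 248 of 1534. Replicate 1 thus extended 4197 bp further to the right than replicate 2, and the set list ended near replicate 1. The score fell across the break by 1.10 in replicate 1, 0.89 in replicate 2 and 1.16 in the set list. No other break of at most 300 bp on X had a larger difference of scores in any list, against medians of 0.14, 0.15 and 0.12. With breaks of up to 1000 bp, 1 of 226 had a larger difference in replicate 1, 2 of 182 in replicate 2 and 1 of 406 in the set list. The N domain is itself among the highest-scoring regions of X, so these differences largely restate its score rank.

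**Figure D2:**
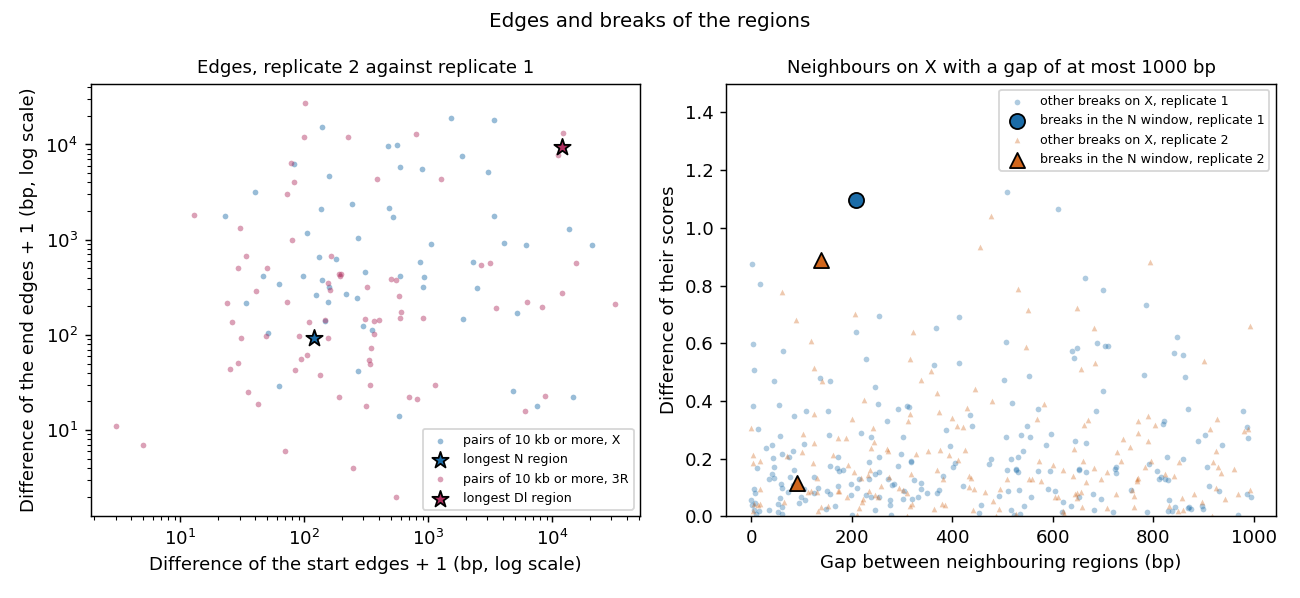
Left, differences in bp (plus 1, log scales) between replicates of the start and end edges of matched regions of at least 10 kb on X and 3R, with the longest N and Dl regions as stars. Right, difference of scores against gap in bp for neighbouring regions on X at most 1000 bp apart. The break to the right of the N domain stands high in both replicates at 1.10 and 0.89. The other marked break of replicate 2, of 91 bp in the left flank, has a difference of 0.12.

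Past this region, both replicates were empty for a long way. The next region of replicate 1 began after 173.6 kb, and that of replicate 2 after 178.3 kb. These stretches ranked 18 of 1016 and 22 of 849 among the gaps between neighbouring regions of X, whose medians were 4629 bp and 5144 bp. The empty stretch of replicate 1, from 3063657 to 3237278, held 3 regions of the set list of 1034 to 1410 bp, with scores of 0.43 to 0.50. One of these, from 3071248 to 3072320, lies in the N window, has a score of 0.44 and overlapped neither replicate. On the left, the nearest region outside the window ended 18.2 kb away in replicate 1, 3177 bp away in replicate 2 and 2733 bp away in the set list. In the 55.0 kb to the left of the window 43.8% of the sequence was covered in replicate 1 and 35.7% in replicate 2, and in the 55.0 kb to the right 0% in both. The N domain thus lay at the edge of a marked stretch. Windows of the same length without any region are common on X, at 27.6% in replicate 1 and 33.7% in replicate 2.

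In all, regions covered 37.6 kb of the N window in replicate 1, 33.5 kb in replicate 2 and 41.9 kb in the set list. These are 68.4%, 60.8% and 76.2% of it, against medians of 11.1%, 7.37% and 20.4% over the 22368 windows of X. Windows covered at least as much made up 3.53% in replicate 1, 4.85% in replicate 2 and 4.67% in the set list. Windows that overlap each other are not independent, and those as covered as N in both replicates (3.41%) merged into 21 separate stretches of X, of which N is 1. Cover of the N window was therefore high and shared with 20 other places on the arm. In bins of 5 kb, the 5 from 3030000 to 3054999 were fully covered in every list. The bin from 3060000 was the only 1 of 11 in which the replicates differed by more than 10 percentage points, at 73.1% and 0%.

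**Figure D3:**
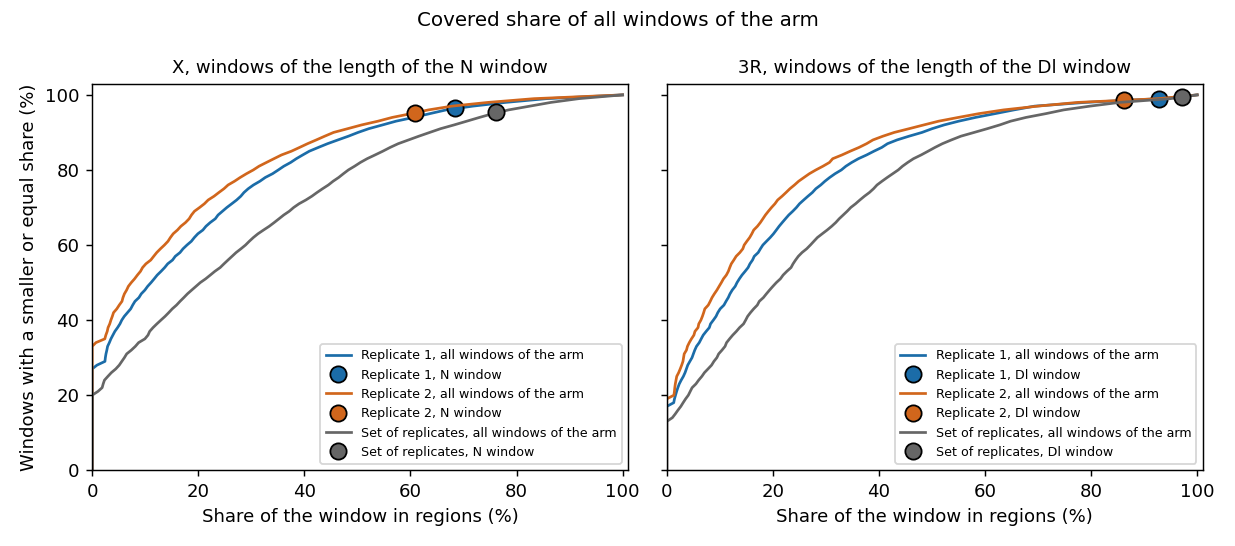
Share of windows (%) against covered share (%) for all windows of X of the length of the N window and of 3R of the length of the Dl window; curves are the arm's windows in each list and points the loci. The N points lie at 68.4%, 60.8% and 76.2% cover and the Dl points at 92.8%, 86.2% and 97.1%, close to the top of every curve.

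At Dl, the mark filled almost the whole window, and the lists cut it in different places. In replicate 1 the longest region ran from 15119602 to 15188889 (69.3 kb) with a score of 1.55. In replicate 2 it ran from 15131538 to 15198248 (66.7 kb) with a score of 1.57. In the set list a single region ran from 15119412 to 15217920 (98.5 kb) with a score of 1.30, and it reached 7920 bp past the window. These were the fourth longest regions of 3R in each list, and ranked 8, 8 and 7 by length over all chromosomes. Regions covered 92.8 kb of the window in replicate 1, 86.2 kb in replicate 2 and 97.1 kb in the set list.

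The covered share of the Dl window was 92.8%, 86.2% and 97.1%, against medians of 13.2%, 10.3% and 20.7% over the 27806 windows of 3R. Windows covered at least as much made up 1.16% in replicate 1, 1.47% in replicate 2 and 0.622% in the set list. Those as covered in both replicates (1.15%) merged into 4 separate stretches of 3R. Besides Dl they lay from 2722001 to 2883001, from 6323001 to 6509001 and from 12474001 to 12739001. On the left of the window the next 100.0 kb were covered to 16.0% in replicate 1 and 7.70% in replicate 2. On the right they were covered to 17.9% and 10.4%. Both windows were thus covered more than either of their flanks in both replicates.

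**Figure D4:**
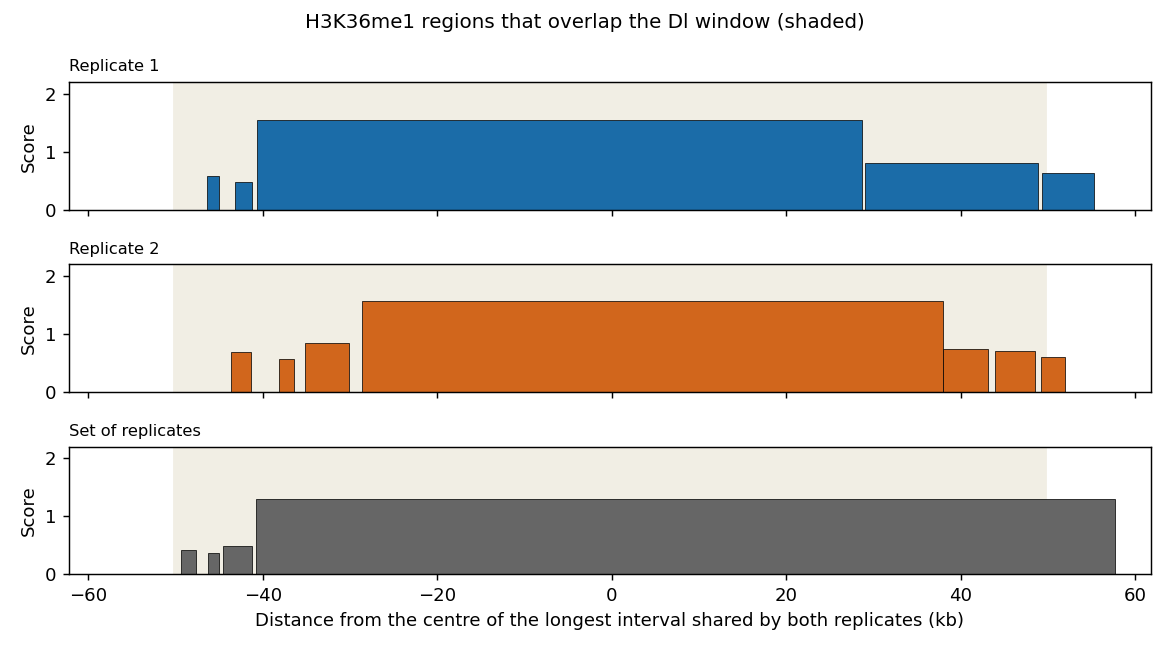
Regions that overlap the Dl window (shaded) in each list, as bars from region start to end against distance in kb, with the authors' score as height. The longest region is shifted to the right in replicate 2, and the set list joins 98.5 kb into 1 region.

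The edges of the longest Dl region differed widely between replicates. The start lay 11936 bp further right in replicate 2, and the end 9359 bp further right. They shared 57352 bp, or 82.8% of the region in replicate 1 and 86.0% in replicate 2. Of 77 matched pairs of at least 10 kb on 3R, 70 (90.9%) had a larger edge difference no greater than that of the Dl pair, and the medians were 195 bp for the start and 190 bp for the end. Sequence left out of the longest region was mostly covered by its neighbours in the same list. Of the 69.3 kb region of replicate 1, regions of replicate 2 covered 92.6%, and of the 66.7 kb region of replicate 2, regions of replicate 1 covered 99.5%. The replicates thus marked much the same sequence. At the right edge they placed the cuts differently. At the left edge replicate 2 also left gaps where replicate 1 was continuous, so the start difference is partly missing cover.

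The left part of the Dl window held the sites where the replicates differed most. Replicate 1 had a region of 1325 bp from 15113815 to 15115139, with a score of 0.58 and rank 646 of 1153, that replicate 2 lacked. Both replicates had the next region, from 15117028 to 15118918 in replicate 1 with a score of 0.49, and from 15116534 to 15118818 in replicate 2 with a score of 0.70. These ranked 947 of 1153 and 484 of 973. Where replicate 1 was continuous from 15119602, replicate 2 had regions from 15122092 to 15123836 with a score of 0.56 and from 15125039 to 15130123 with a score of 0.85. These ranked 831 and 254 of 973, and gaps of 3273 bp, 1202 bp and 1414 bp stood around them. In the bin of 5 kb from 15120000, replicate 1 was covered to 100% and replicate 2 to 34.9%, the largest difference among the 20 bins. The replicates lay within 10 percentage points of each other in 16 of the 20.

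In the right part of the Dl window the replicates had further regions of lower score, parted by gaps of 1 to 712 bp, where the set list had no gap. In replicate 1, a gap of 353 bp was followed by a region of 19.9 kb from 15189243 to 15209118, with a score of 0.81 and rank 227 of 1153. Then, after 459 bp, came a region from 15209578 to 15215557 with a score of 0.65 and rank 435, which reached 5557 bp past the window. In replicate 2, a break of 1 bp was followed by a region from 15198250 to 15203400 with a score of 0.74 and rank 389 of 973. The next ran from 15204113 to 15208701 with a score of 0.71 and rank 453. The last ran from 15209404 to 15212173 with a score of 0.61 and rank 715, and reached 2173 bp past the window. In both replicates the scores to the right of the longest region were lower than its own by at least 0.73.

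**Figure D5:**
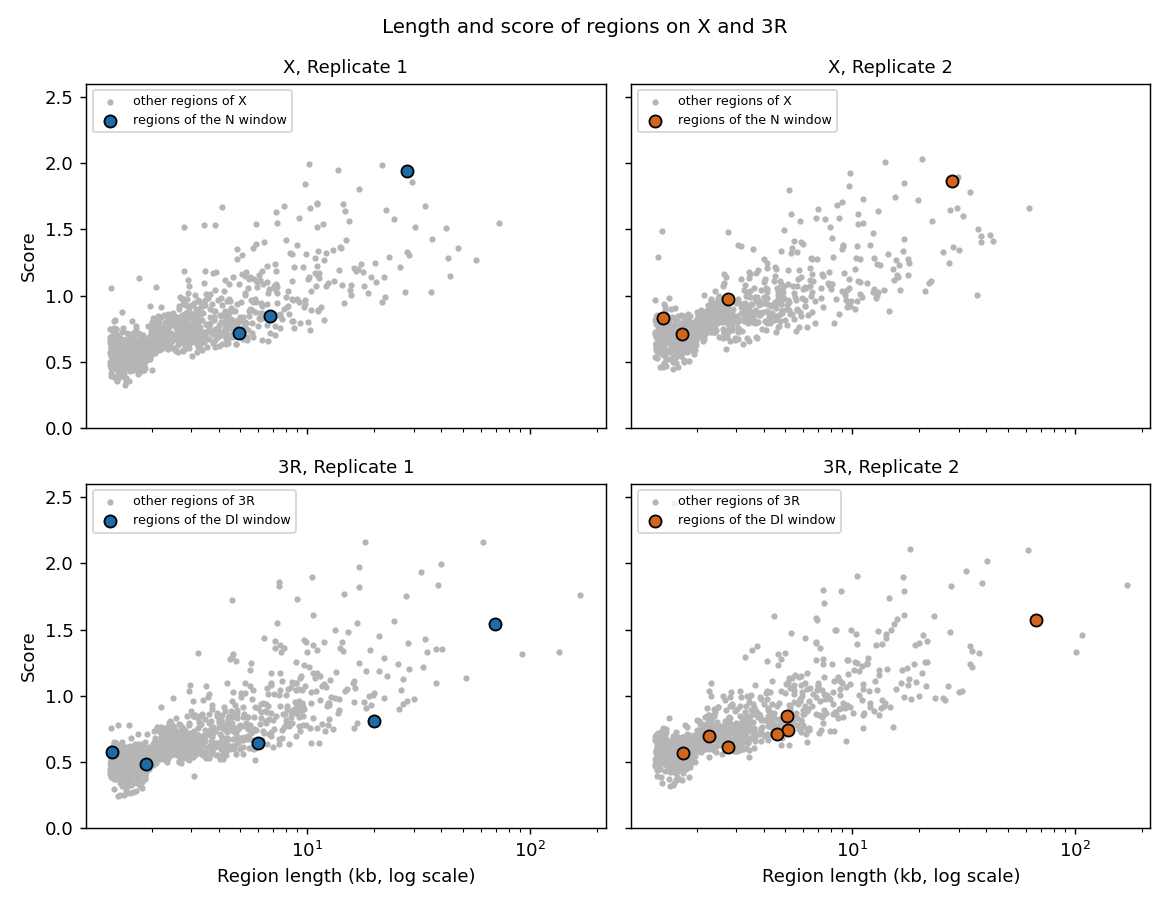
Score against region length (kb, log scale) for all regions of X and 3R in each replicate, with the regions of the N and Dl windows in colour. The longest N region lies at the upper border of the points at 1.94 and 1.87, and the regions to the right in the Dl window lie in the lower part of the points of like length.

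These right-hand regions were low for their length. Of the 200 regions of 3R nearest in length, 157 scored higher than the 19.9 kb region of replicate 1 and 162 higher than the region after it. In replicate 2 these numbers were 164, 167 and 185 for the regions from left to right. For the 19.9 kb region the 200 ran from 5756 bp to 61475 bp, so not all of them are of like length. The longest Dl region itself ranked 20 of 1153 on 3R in replicate 1, 21 of 973 in replicate 2 and 44 of 1686 in the set list. Among the 20 regions nearest in length 6 scored higher in replicate 1, 6 in replicate 2 and 9 in the set list. These 20 ran from 27.0 kb to 168.2 kb in replicate 1, since few regions are as long.

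Some gaps at Dl were shared by the lists and others were not. To the left of the longest region of replicate 1, a gap of 683 bp from 15118919 to 15119601 was open in both replicates, and 400 bp of it, from 15119012 to 15119411, were open in the set list too. A gap of 1394 bp further left, from 15115140 to 15116533, was also open in both replicates, and the set list covered 1001 bp of it. The gap of 353 bp in replicate 1 lay inside the longest region of replicate 2, and the break of 1 bp in replicate 2 lay inside the 19.9 kb region of replicate 1. To the right, a gap of 285 bp from 15209119 to 15209403 was common to both replicates, and the set list covered all of it. With regions less than 1000 bp apart joined, the run that holds the longest region was 104.8 kb long in replicate 1, from 15117028 to 15221804. It was 80.6 kb in replicate 2, from 15131538 to 15212173, and 108.5 kb in the set list, from 15113876 to 15222326. These runs held 7, 4 and 4 regions and ranked 3, 5 and 3 by length on 3R. The next regions after the window were 2002 bp long, 5900 bp away, in replicate 1, and 2286 bp long, 3326 bp away, in replicate 2. The next one in the set list was 3839 bp long and 8487 bp away. Before the window the nearest region ended 25.4 kb away in replicate 1, 34.6 kb away in replicate 2 and 1494 bp away in the set list.

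The longest regions of the N and Dl windows differed in length and score in every list, and these values are given side by side with no test. Whether the windows hold the whole genes could not be checked, so the values describe windows and not genes. The longest region was 27.9 kb at N and 69.3 kb at Dl in replicate 1, 27.9 kb and 66.7 kb in replicate 2, and 28.0 kb and 98.5 kb in the set list. The Dl region was thus 2.48, 2.39 and 3.52 times as long. The score was higher at N by 0.40 in replicate 1, 0.30 in replicate 2 and 0.59 in the set list. Scores on X also have higher medians than those on 3R, by 0.09, 0.11 and 0.07. The maximum score was nevertheless higher on 3R than on X, at 2.16, 2.46 and 3.21 against 1.99, 2.03 and 1.97. As the loci lie on different arms, locus and arm cannot be told apart. The windows are of different length, so their covered shares are not set against each other.

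The ratio of shared to covered length was higher at these loci than over their arms, but this ratio rises with cover. At N they shared 33.2 kb of the 37.9 kb covered in either, a ratio of 0.875, against 0.686 over X. At Dl they shared 85.1 kb of 93.8 kb, a ratio of 0.907, against 0.731 over 3R. Such ratios were nevertheless reached by other windows, 13.2% of those of X with a region and 11.2% of those of 3R. With 92.8% and 86.2% of the Dl window covered, its ratio could not have been as low as that of 3R. The comparison therefore does not measure agreement at Dl. At N the cover of 68.4% and 60.8% also raises the ratio, and the windows of X were not matched for cover. Sequence in 1 replicate alone came mainly from replicate 1, at 4469 bp against 280 bp at N and 7661 bp against 1021 bp at Dl. Replicate 1 is the larger list on both arms, with 1017 against 850 regions on X and 1153 against 973 on 3R. Median window cover was also higher in it, at 11.1% against 7.37% on X and 13.2% against 10.3% on 3R. The same split over the arms is not given here, so it is not read as a trait of the loci. All 3 regions of replicate 1 at N were matched in replicate 2 by at least 1 bp, and 4 of 5 at Dl, against 69.7% on X and 69.4% on 3R. All 4 regions of replicate 2 at N and all 7 at Dl were matched in replicate 1, against 86.5% and 88.3%. With a reciprocal overlap of 50%, 1 of 3 and 1 of 4 regions were matched at N, against 55.1% and 65.9% on X. At Dl 2 of 5 and 2 of 7 were matched, against 58.2% and 69% on 3R. These counts are small, and regions of 1 domain are not independent. A match by 1 bp is also easier to reach where cover is high.

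The set list kept 99.97% of the sequence of replicate 1 and 99.7% of that of replicate 2 at N, and 99.9% and 100% at Dl. It added 4084 bp at N and 3350 bp at Dl that lay in neither replicate, or 9.75% and 3.45% of its own cover. At N, 2 of its 5 regions overlapped neither replicate, against 39.4% on X. At Dl, 1 of 4 did, against 35.6% on 3R, a region from 15110808 to 15112588 with a score of 0.42 and rank 994 of 1686. The other short regions of the set list at Dl ran from 15113876 to 15115227 with a score of 0.37 and rank 1320, and from 15115621 to 15119011 with a score of 0.49 and rank 654.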

How the data were processed

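Chromatin of Oregon-R embryos was immunoprecipitated with an antibody against H3K36me1, per the labels' protocols, and per the submitters' processing notes Bowtie 0.12.7 mapped the reads. The deposited lists give regions of significant enrichment with 1 score each, on FlyBase release 5, per the file headers. For the caller, its threshold, the making of the set list and the scale of the score, the sources used here give nothing. The depth is unknown, and no interval is given.

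Positions count from 1 with both ends included. Regions were clipped to a window for its covered share. Ranks run from the highest score or length. Pairs of regions are mutual best overlaps. Every region of a replicate at the loci is named, with those of the set list that overlap neither replicate. The members, windows and comparisons were chosen with earlier results of these data known. The analysis of breaks, of flanks and of the 20 regions nearest in length was added after the values were seen. The code was tested on simulated data. Python 3.11.15, NumPy 2.4.6 and matplotlib 3.10.9 were used. No genome or annotation of release 5 was used here, so the planned values at other Notch pathway genes were not computed and no sequence is shown.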

Additional observations from a re-analysis of the deposited data

How the results depend on the processing

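Of 64 alternative values for the 2 loci, 37 stayed within the SD of the replicates (for ratios and matched shares any change counted as a move). Part of this count was fixed in advance, so it does not measure robustness. With 2 replicates, either one alone always lies within their SD of the mean. The longest gaps exceed 1000 bp and cannot change on merging, and ranks among 20 regions are too coarse to stay. The mean covered share of the replicates was 64.6% at N and 89.5% at Dl. It was 76.2% and 97.1% in the set list, 49.9% and 80.1% with the windows widened by 10 kb on each side, and 83.3% at Dl with the 50% of regions that scored higher. The replicates alone gave 60.8% to 68.4% at N and 86.2% to 92.8% at Dl. The share of windows covered at least as much was 4.19% at N. It was 5.24% against all 5 large arms and 6.95% with the widened window. At Dl it was 1.31%, and it was 0.622% in the set list, 0.641% against all 5 large arms, 1.04% for sequence in either replicate, 1.08% with windows that do not overlap, 1.57% with the higher-scoring 50%, 1.58% for common sequence and 1.60% with the widened window. The ratio of shared to covered length was 0.829 at N and 0.852 at Dl with the higher-scoring 50%, and 0.884 and 0.919 after merging regions under 1000 bp apart. A reciprocal overlap of 50% lowered the matched regions to 33.3% and 25% at N and to 40% and 28.6% at Dl. The score of the longest N region stood at the top 0.491% of its arm, at 2.24% among the 200 regions nearest in length and at 11.9% among the 20 nearest. That of Dl stood at 1.95% of its arm, 1.55% of the whole list, 9.45% of the 200 and 33.3% of the 20. The causes were not tested, except that a wider window or a score threshold changes cover by construction. The longest gap between regions was 5.77 to 5.80 kb at N and 1.89 to 3.27 kb at Dl in single replicates. No paired analysis was possible because there is 1 immunoprecipitated group and inputs carry no values. Depth is unknown, so what it limits was not tested.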
